A study of Mus musculus with 12 samples.

Results

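The genes described here are 10 receptor genes by which macrophages take in antibody-coated and fungal or bacterial particles: 5 subunits of Fc receptors (Fcgr1, Fcgr2b, Fcgr3, Fcgr4 and Fcer1g) and 5 C-type lectin receptors (Clec4d, Clec4e, Clec4n, Clec5a and Clec7a). They were taken by gene symbol from 22243 genes in the table of transcript abundances, and all 10 had a mean of at least 1 TPM (transcripts of the gene per 1000000 transcripts in a library, corrected for length), the level that 8780 genes reached. RNA was sequenced from M1-activated bone marrow-derived macrophages (BM-Mɸs) of 6 ErbB4myeKO mice and 6 ErbB4FF littermates, 1 of each genotype from each of 6 litters, to ask what loss of the receptor tyrosine kinase ErbB4 does to the inflammatory program of these cells. All 12 mice were C57Bl/6 and carried floxed Erbb4 alleles, and the ErbB4myeKO mice also carried LysMCre, a Cre recombinase under the lysozyme 2 promoter, which is active in macrophages and in other myeloid cells such as neutrophils. All 12 cultures were grown with M-CSF from conditioned medium and then received IFN-γ at 100 U/mL for 16 h followed by LPS at 100 ng/mL for 6 h, so no unstimulated culture stands beside them.

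Fc receptors bind the constant part of antibodies. The IgG receptors that activate cells depend on the FcR γ chain, encoded by Fcer1g, whose ITAM motif (a tyrosine-based activation signal) recruits the kinase Syk, whereas FcγRIIB, encoded by Fcgr2b, carries the opposing ITIM motif and dampens the signal through phosphatases. C-type lectin receptors of macrophages recognise glycans and glycolipids of fungi and mycobacteria and use the same Syk pathway, either through the FcR γ chain (Clec4d, Clec4e, Clec4n), through the adaptor DAP12 (Clec5a) or through a motif of their own (Clec7a). IFN-γ is a classical inducer of the IgG receptor Fcgr1, and LPS of Clec4e. On GRCm38, Fcgr2b, Fcgr4, Fcgr3 and Fcer1g lie within 276 kb of chromosome 1 (170958617 to 171234365), Fcgr1 lies alone on chromosome 3 (96282909 to 96293969). All 5 lectin receptors lie on chromosome 6, where Clec4n, Clec4d and Clec4e fill 60.0 kb (123229843 to 123289870), Clec7a follows at 129461591 to 129472779 and Clec5a lies at 40574894 to 40585821.

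The level of Erbb4 itself was below 1 TPM in all 12 libraries, with a lowest, median and highest value of 0.280, 0.623 and 0.852 TPM in ErbB4myeKO and of 0.372, 0.404 and 0.716 TPM in ErbB4FF BM-Mɸs, and it was lower in ErbB4myeKO in 2 of 6 litters. The value covers the whole transcript and does not resolve a deleted exon, so it was no check of the genotype labels. The transcripts in the table held between 59.0% and 74.7% of each library's TPM, with the 2 highest shares in litter 5, and between 10214 and 12985 genes were above 0. The macrophage marker Adgre1 (F4/80) lay between 662 and 1060 TPM in every library. Of 8 macrophage markers none had an unadjusted limma p under 0.05 between genotypes, although Mertk was higher in ErbB4myeKO in 6 of 6 litters (log2 ratio 0.14, exact permutation p = 0.0312). Among these 8, the largest mean shift was that of the lysozyme 2 gene Lyz2, whose promoter drives LysMCre. Lyz2 had a mean of 5305 TPM in ErbB4myeKO and 8277 TPM in ErbB4FF and was lower in ErbB4myeKO in 5 of 6 litters (log2 ratio -0.59, exact permutation p = 0.219). Only the ErbB4myeKO mice carried LysMCre, so its own effect apart from loss of ErbB4 was not tested. Of the mast cell and basophil markers, Fcer1a, Ms4a2, Mcpt4, Tpsb2 and Cma1 were at 0 in all libraries, the summed level of the 8 lay between 11.4 and 42.0 TPM in ErbB4myeKO and between 20.2 and 47.7 TPM in ErbB4FF, and Hdc was lower in ErbB4myeKO (log2 ratio -0.40, exact permutation p = 0.0312, limma adjusted p = 0.603). The 8 B cell markers, with Cr2 at 0 and Ms4a1 at most at 0.0771 TPM, summed to 0.236 to 20.2 TPM in ErbB4myeKO and 0.297 to 25.9 TPM in ErbB4FF, with Ighm reaching 25.3 TPM (log2 ratio -1.01, limma adjusted p = 0.603). All 4 dendritic cell markers tested had a mean ratio above 0 (Xcr1 0.63, Itgax 0.44, Ccr7 0.33 and Clec9a 0.10), Xcr1 with an unadjusted p under 0.05. Their median was 0.96 in litter 2 and 0.78 in litter 4, the litters with the lowest Fc receptor medians, and between 0.03 and 0.58 in the others. The list of 10 summed to 57.3 to 136 TPM in ErbB4myeKO and 39.6 to 106 TPM in ErbB4FF. Its other markers were too low to test. Cd209a and Siglech were at 0 in all libraries, and Flt3, Zbtb46, Itgae and Dpp4 were at most at 0.0789, 0.394, 0.0562 and 0.809 TPM. Of 4 neutrophil markers tested, 2 lay above 0 (Camp 0.45, S100a8 0.30) and 2 below (S100a9 -0.24, Ngp -0.36), with a median of 0.03. Of 9 proliferation genes 6 lay above and 3 below (median 0.06). Camp and the proliferation gene Mki67 (0.42) had an unadjusted p under 0.05, and no T or NK cell marker reached the level for testing. The part of any of these in the receptor values was not tested. In bulk RNA, fewer cells of a type and less RNA per cell cannot be told apart.

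Within litters, all 5 Fc receptor subunits had a mean log2 ratio (ErbB4myeKO over ErbB4FF) below 0 and all 5 C-type lectin receptors had one above 0, against 50.2% of all tested genes below 0 and 49.8% above. The median ratio was -0.37 over the Fc receptor subunits and 0.25 over the C-type lectin receptors, beside a median of -0.00068 over all 8780 genes. The Fc receptor median rested much on litters 2 and 4, since it was -0.13 without litter 2 and -0.19 without litter 4. That of the lectin receptors lay between 0.21 and 0.32 in the 6 fits that left out a litter. With litter as a block, limma gave an unadjusted p under 0.05 to 2 Fc receptor genes, Fcgr1 and Fcgr4, both lower in ErbB4myeKO (4.38% of all genes were called so), and to 1 lectin gene, Clec5a, which was higher (3.83% of all genes). These 3 were also the members that lay on the same side in all 6 litters, 2 lower (2.31% of all genes) and 1 higher (2.51% of all genes). No member passed after Benjamini-Hochberg adjustment over all genes, where adjusted p ran from 0.603 to 0.763, nor did any of the 8780 genes (0%), of which 721 had an unadjusted p under 0.05, 385 lower and 336 higher. That split turned with the settings. When TPM was rescaled to an equal total over the transcripts in the table, 9459 genes reached the level for testing, and 256 such genes were lower and 460 higher. More were also higher without the trend (305 lower, 356 higher), the filter (450, 533), the litter block (35, 40) or litter 4 (225, 233). Rescaling by median ratios moved the split the other way (423 lower, 298 higher). All 10 members kept their direction under each of these settings. The TPM ranges of the 2 genotypes overlapped for 10 of 10 members, as the plot of TPM by litter shows.

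**Figure D1:**
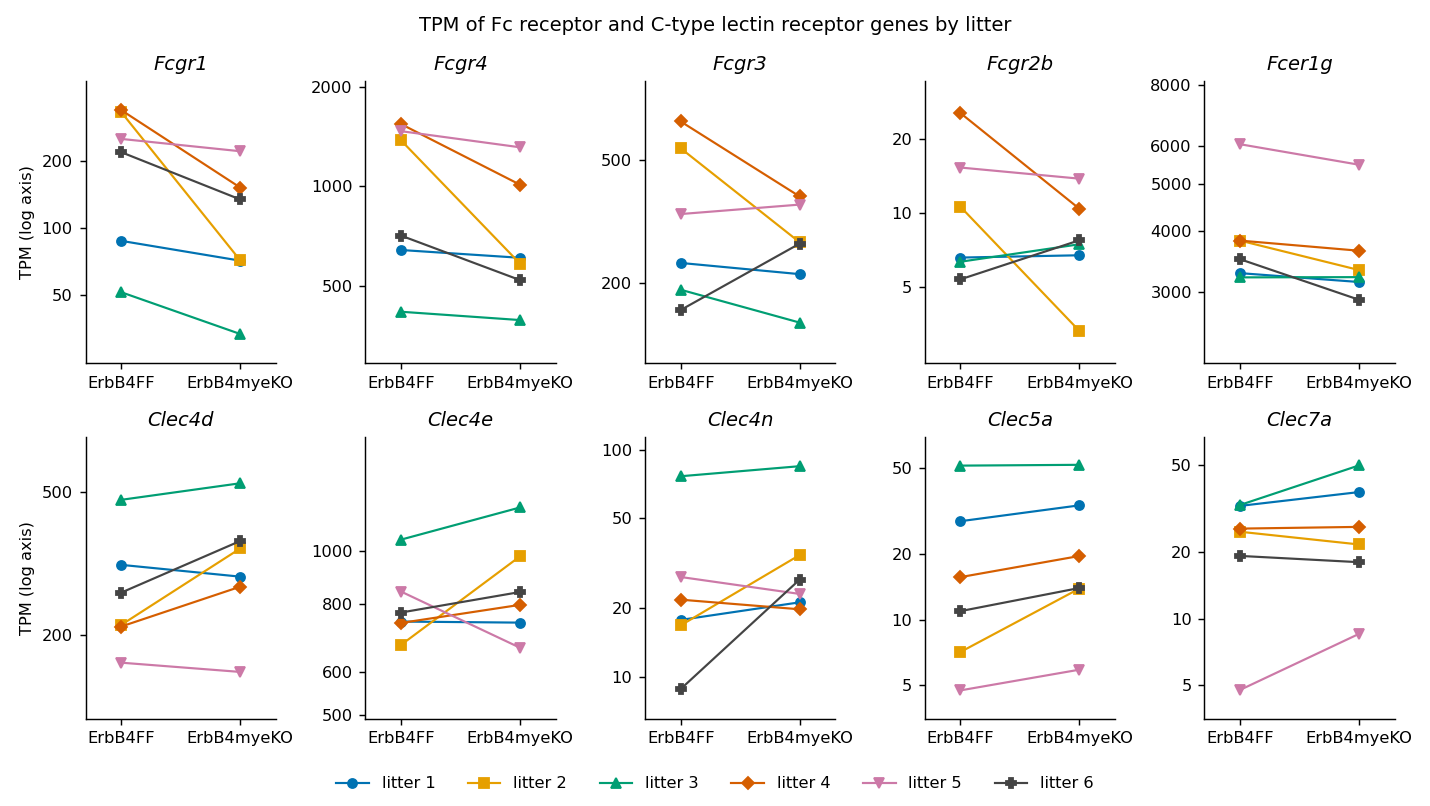
TPM (log axis) of each of the 10 genes in ErbB4FF and ErbB4myeKO BM-Mɸs, with a line joining the 2 littermates of each litter. All 6 lines of Fcgr1 and Fcgr4 slope down and all 6 of Clec5a slope up, and the genotypes overlap in every panel.

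The sequences before the transcription start of those 3 genes are shown because they are the members whose littermates differed the same way in every litter. Each is the 250 bases before the start site in RefSeq (GRCm38.p6), 5′ to 3′ on the strand of the gene: Fcgr4 at chr1:171018676-171018925 (plus strand), Fcgr1 at chr3:96293970-96294219 (minus strand) and Clec5a at chr6:40585806-40586055 (minus strand). Capitals mark matches, on either strand, to 4 short motifs: the IFN-γ-activated site (TTCNNNGAA), the core of the interferon-stimulated response element (GAAA, any 2 bases, GAAA), an NF-κB site (GGG, any 5 bases, CC) and the core of the site for the myeloid factor PU.1 (GAGGAA).
Fcgr1: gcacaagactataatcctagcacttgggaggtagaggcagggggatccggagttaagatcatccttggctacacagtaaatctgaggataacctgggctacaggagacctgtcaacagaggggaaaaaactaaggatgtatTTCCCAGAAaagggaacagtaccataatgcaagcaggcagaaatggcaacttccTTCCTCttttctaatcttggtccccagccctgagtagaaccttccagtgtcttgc
Fcgr4: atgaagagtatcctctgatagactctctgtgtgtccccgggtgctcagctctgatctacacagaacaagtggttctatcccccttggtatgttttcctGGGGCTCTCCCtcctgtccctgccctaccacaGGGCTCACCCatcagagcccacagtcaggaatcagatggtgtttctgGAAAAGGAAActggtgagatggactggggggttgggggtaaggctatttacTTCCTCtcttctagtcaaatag
Clec5a: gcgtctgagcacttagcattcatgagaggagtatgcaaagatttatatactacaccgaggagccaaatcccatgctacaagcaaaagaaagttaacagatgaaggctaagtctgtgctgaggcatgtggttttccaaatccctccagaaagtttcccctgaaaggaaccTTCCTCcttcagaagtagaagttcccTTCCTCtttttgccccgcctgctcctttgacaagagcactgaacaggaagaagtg
Positions are counted from the start site as base 0. Fcgr1 held an IFN-γ-activated site at -109 to -101, written TTCCCAGAA, and was the only member with one among the 9 members that matched the RefSeq table of promoters (250 bases before the start to 50 after), where 8.30% of 32851 promoters held the motif. Fcgr4 held the interferon-stimulated response element core at -73 to -64, which Clec4d also held and which 3.44% of promoters contain. The PU.1 core was found in 7 of 9 members, among them the 3 above and the lectin receptors Clec4d, Clec4e and Clec7a, against 28.3% of all promoters. The NF-κB letters were found in 4 of 9, all of them Fc receptor genes, against 50.8%. The NF-κB matches can overlap each other, as in Fcgr4. A match to letters is a description and no evidence of binding.

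Fcgr1 encodes FcγRI (CD64), the high-affinity receptor for IgG. It measured 33.4, 103 and 220 TPM (lowest, median and highest) in ErbB4myeKO and 51.4, 234 and 337 TPM in ErbB4FF BM-Mɸs. The lower value was that of the ErbB4myeKO littermate in 6 of 6 litters, although the genotype ranges overlapped. The ratio was furthest from 0 in litter 2 (log2 ratio -2.20), with 71.4 TPM in ErbB4myeKO and 330 TPM in ErbB4FF, and closest to 0 in litter 5 (-0.18), with 220 and 250.1 TPM. The log2 ratio was -0.86 ± 0.74 (SD, n = 6 litters), with a 95% confidence interval from -1.44 to -0.27, an exact permutation p of 0.0312 over the 64 swaps of genotype within litters, which is the smallest they can give, and a limma p of 0.00987 (adjusted p = 0.603). Without litter 2 the ratio was -0.59, and the unadjusted limma p was under 0.05 in each of the 6 fits that left out a litter.

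Fcgr4 encodes FcγRIV, an activating receptor for IgG2a and IgG2b that, like FcγRI, needs the FcR γ chain. Its level was 393, 595 and 1312 TPM in ErbB4myeKO and 417, 1044 and 1544 TPM in ErbB4FF BM-Mɸs. Again the ErbB4myeKO littermate was lower in 6 of 6 litters, with 607 against 641 TPM in litter 1 and 393 against 417 TPM in litter 3, but 583 against 1378 TPM in litter 2. The log2 ratio was -0.44 ± 0.45 (SD, n = 6 litters; 95% interval -0.80 to -0.07; exact permutation p = 0.0312; limma p = 0.0241, adjusted p = 0.603). It was -0.28 without litter 2, and its unadjusted p was 0.0635 without litter 4 and 0.0519 without litter 6.

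Fcgr3 encodes FcγRIII (CD16), the low-affinity activating receptor for immune complexes. It ranged from 149 over a median of 270 to 381 TPM in ErbB4myeKO and from 164 over 283 to 664 TPM in ErbB4FF BM-Mɸs. It was lower in ErbB4myeKO in 4 of 6 litters and higher in litters 5 and 6, most of all in litter 6, where the littermates had 269 and 164 TPM. The log2 ratio of -0.24 ± 0.62 (SD, n = 6) lay within the spread between litters (exact permutation p = 0.344; limma p = 0.284; 95% interval -0.74 to 0.25), and was -0.09 without litter 2, -0.13 without litter 4 and -0.44 without litter 6, the last with an unadjusted p of 0.0402.

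Fcgr2b, the inhibitory receptor, had the lowest mean level of the 10 genes over the transcripts in the table: 3.30, 7.57 and 13.7 TPM in ErbB4myeKO and 5.35, 8.56 and 25.4 TPM in ErbB4FF BM-Mɸs. Its littermates differed in opposite directions, 3 litters higher and 3 lower, with the largest gaps in litter 2 (3.30 TPM in ErbB4myeKO against 10.6 TPM) and litter 4 (10.4 against 25.4 TPM). The log2 ratio was -0.37 ± 0.83 (SD, n = 6; exact permutation p = 0.438; limma p = 0.236; 95% interval -1.03 to 0.30), and without litter 2 or litter 4 it was -0.13 or -0.19. Reads cannot always place Fcgr2b and Fcgr3 apart, since 17.7% of the 31-base words of the Fcgr3 transcript also occurred in Fcgr2b transcripts, so part of either value may belong to the other gene. Fcgr4 shared 1.31% of its words with other genes, and Fcgr1 and Fcer1g shared none.

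Fcer1g, the signaling chain that the activating Fc receptors and 3 of the lectin receptors share, was the most abundant member in every library, at 51.7% to 66.5% of the TPM of the 10 genes. It measured 2890, 3274 and 5488 TPM in ErbB4myeKO and 3216, 3666 and 6049 TPM in ErbB4FF BM-Mɸs. Litter 5 stood above all other litters in both genotypes, and the ErbB4myeKO littermate was lower in 5 of 6 litters and equal within 0.116% in litter 3. The log2 ratio was small and even, -0.12 ± 0.10 (SD, n = 6; exact permutation p = 0.0625; limma p = 0.0670, adjusted p = 0.603; 95% interval -0.26 to 0.01), and its unadjusted p was 0.0412 without litter 3.

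Among the lectin receptors, Clec5a encodes MDL-1, which pairs with DAP12 and not with the FcR γ chain. It measured 5.87, 16.8 and 51.8 TPM in ErbB4myeKO and 4.71, 13.3 and 51.3 TPM in ErbB4FF BM-Mɸs. Every ErbB4myeKO value exceeded that of its littermate, by 0.857% in litter 3 and 96.3% in litter 2, while litters differed far more than genotypes: litter 3 held the highest and litter 5 the lowest values of both. The log2 ratio was 0.35 ± 0.30 (SD, n = 6; 95% interval 0.08 to 0.63; exact permutation p = 0.0312; limma p = 0.0189, adjusted p = 0.603), and it was 0.24 without litter 2. Its transcript had about 68.9 normalized estimated counts per library, the lowest of the members' leading transcripts beside Clec7a (70.7), against 11294 for Fcer1g, so counting error weighs more on these 2 lectin genes.

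Clec4e (Mincle) and Clec4d (MCL) are neighbours on chromosome 6 and form a receptor pair for mycobacterial cord factor. Clec4e measured 664, 818 and 1202 TPM in ErbB4myeKO and 672, 756 and 1049 TPM in ErbB4FF BM-Mɸs, the narrowest range of the 10 genes (1.81-fold from lowest to highest library). Clec4d measured 158, 320 and 530 TPM in ErbB4myeKO and 167, 238 and 476 TPM in ErbB4FF BM-Mɸs. Each was higher in ErbB4myeKO in 4 of 6 litters, with litters 1 and 5 on the other side in both. The log2 ratio of Clec4e was 0.10 ± 0.29 (SD, n = 6; exact permutation p = 0.5; limma p = 0.354; 95% interval -0.14 to 0.35), and it was 0.02 without litter 2 and 0.19 without litter 5. That of Clec4d was 0.25 ± 0.32 (SD, n = 6; exact permutation p = 0.156; limma p = 0.0650; 95% interval -0.02 to 0.52), with 0.16 without litter 2 and unadjusted p-values of 0.0326 without litter 1 and 0.0354 without litter 5.

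Clec4n (Dectin-2), a receptor for fungal mannans from the same cluster, measured 19.8, 25 and 84.6 TPM in ErbB4myeKO and 8.84, 19.8 and 76.4 TPM in ErbB4FF BM-Mɸs. Litter 3 was high in both genotypes, and the largest ratios came from litters 2 and 6, with 8.84 TPM in ErbB4FF against 26.8 TPM in ErbB4myeKO in litter 6. The log2 ratio was 0.43 ± 0.70 (SD, n = 6; exact permutation p = 0.219; limma p = 0.115; 95% interval -0.13 to 0.99), and it was 0.20 without litter 6. Clec7a (Dectin-1), the receptor for β-glucans, measured 8.55, 23.9 and 49.6 TPM in ErbB4myeKO and 4.77, 25.2 and 32.8 TPM in ErbB4FF BM-Mɸs, so that its median was lower while its mean log2 ratio was 0.22 ± 0.39 (SD, n = 6; exact permutation p = 0.281; limma p = 0.161; 95% interval -0.11 to 0.55). Without litter 5 that ratio was 0.11, without litter 3 it was 0.15 and without litter 2 it was 0.30. Both genes were higher in ErbB4myeKO in 4 of 6 litters.

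**Figure D2:**
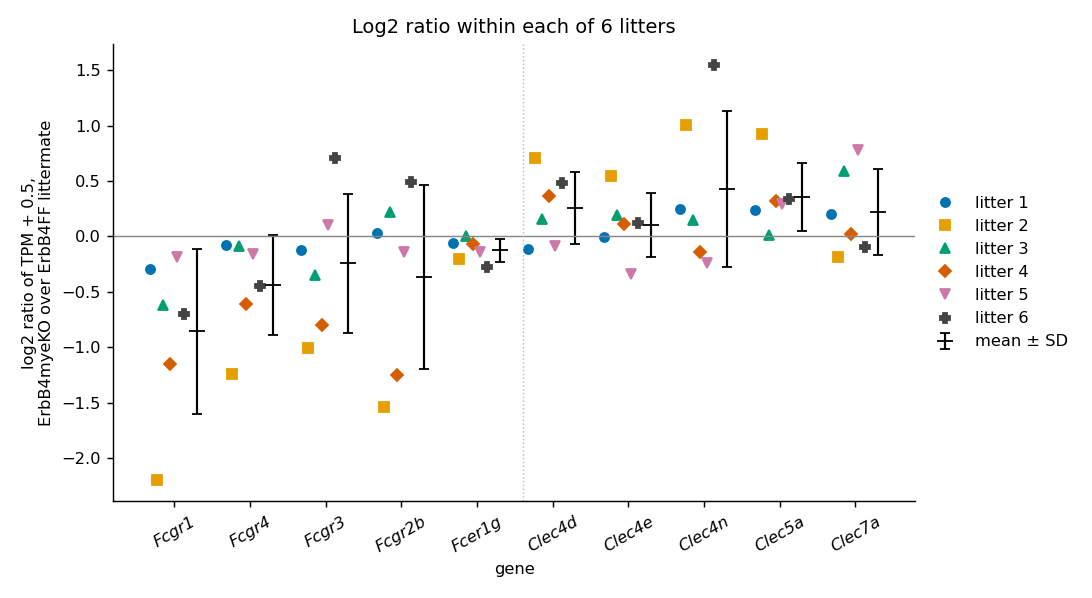
Log2 ratio of TPM + 0.5 (ErbB4myeKO over ErbB4FF littermate) in each of 6 litters, with the mean and SD as a black bar, for the Fc receptor subunits left of the dotted line and the C-type lectin receptors right of it. Means lie below 0 on the left and above 0 on the right, and litter 2 gave the lowest value of Fcgr1 (-2.20) and the highest of Clec5a (0.93).

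Litters contributed unequally to the opposite signs of the Fc receptor and lectin members. In litter 2 the median ratio was -1.24 over the Fc receptor subunits and 0.71 over the lectin receptors, and in litter 4 it was -0.80 and 0.11. In litter 5 both medians were below 0, at -0.15 and -0.09. These members thus lay on opposite sides in 5 of 6 litters, with small gaps in litters 1 and 3. The sign was not that of C-type lectins at large, since of 13 others tested 9 lay below 0 and 4 above (median -0.23). Beside these values, the median ratio of 12 genes of the LPS response (cytokines and feedback inhibitors such as Il12b, Cxcl1 and Nfkbia) was 1.77 in litter 2 and 1.19 in litter 4, and between -0.13 and 0.39 in the other litters. The median of 12 genes of the IFN-γ response lay between -0.23 and 0.04 in all 6 litters. The part of the LPS response in the receptor ratios was not tested.

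**Figure D3:**
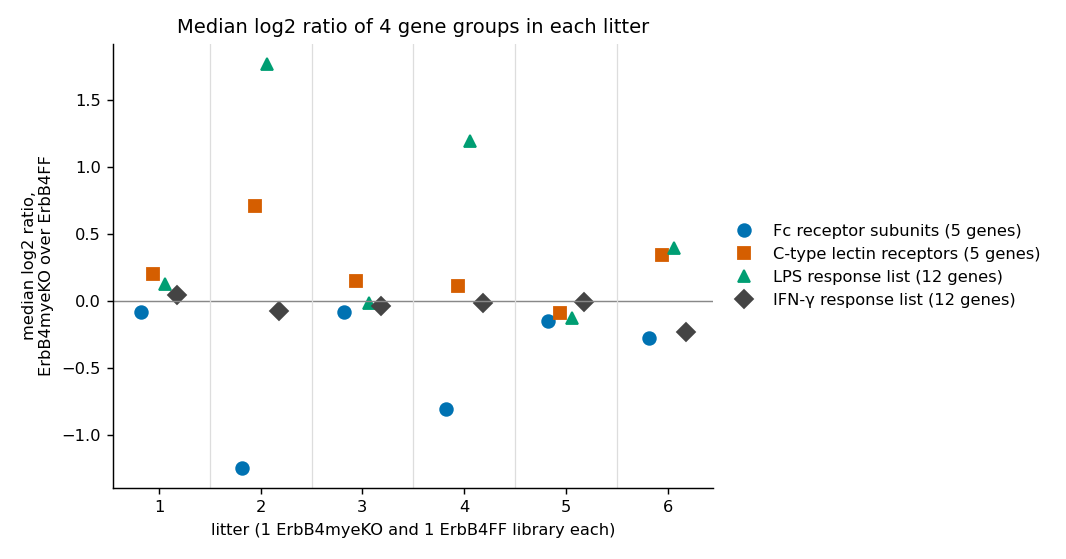
Median log2 ratio (ErbB4myeKO over ErbB4FF) in each litter of the 5 Fc receptor subunits, the 5 C-type lectin receptors, 12 LPS response genes and 12 IFN-γ response genes. Litters 2 and 4, with LPS medians of 1.77 and 1.19, also had the lowest Fc receptor medians, -1.24 and -0.80, while the IFN-γ medians stayed near 0.

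Compared per length in TPM, the geometric mean level over the 12 libraries fell from Fcer1g (3691 TPM) through Clec4e (823), Fcgr4 (787), Fcgr3 (284), Clec4d (282), Fcgr1 (129), Clec4n (26.0), Clec7a (21.7) and Clec5a (16.4) to Fcgr2b (8.66). These levels cover only the transcripts in the table: 2 of 7 annotated ones for Fcgr2b, 1 of 7 for Clec4e, 1 of 6 for Clec4n and 1 of 1 for Fcgr4. The order may therefore differ for whole genes. Of 9 neighbouring pairs in that order, 2 stood apart in every library: Fcer1g was 4.48-fold above Clec4e and Fcgr4 was 2.77-fold above Fcgr3 (each exact permutation p = 0.0312 over 6 litters, adjusted p = 0.141 over 9 pairs). The other 7 pairs had exact permutation p-values from 0.0625 to 0.938 (Fcgr3 over Clec4d) and did not keep 1 order in all libraries. Fcgr1 stood 4.87-fold above Clec4n on average, in 5 of 6 litters and 10 of 12 libraries (exact permutation p = 0.0625, adjusted p = 0.188).

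Over the transcripts in the table, the activating receptors exceeded the inhibitory one in both genotypes. The table held 2 of 7 annotated transcripts of Fcgr2b and 1 of 1 of Fcgr4, so these ratios do not compare whole genes. The summed TPM of Fcgr1, Fcgr3 and Fcgr4 was 77.5, 135 and 281 times that of Fcgr2b (lowest, median and highest) in ErbB4myeKO and 100.2, 141 and 213 times in ErbB4FF BM-Mɸs. The ratio was higher in ErbB4myeKO in 3 litters and lower in 3, with a log2 difference of -0.06 ± 0.50 (SD, n = 6), a mean far smaller than the spread between litters. Fcer1g stood at 1.42 times the summed TPM of its 6 partner chains (Fcgr1, Fcgr3, Fcgr4, Clec4d, Clec4e and Clec4n) in the median ErbB4myeKO library and at 1.52 times in the median ErbB4FF library, while within litters the log2 difference was on average above 0, at 0.05 ± 0.23 (SD, n = 6), higher in ErbB4myeKO in 4 litters and lower in 2. Clec4e stood at 14.2 to 40.1 times Clec4n in ErbB4myeKO and at 13.7 to 87.2 times in ErbB4FF BM-Mɸs, and that log2 difference of -0.34 ± 0.61 (SD, n = 6) shrank to -0.11 without litter 6.

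The Fc receptor and lectin members also lay on opposite sides in the correlations between libraries. Over the 12 libraries, all 10 pairs of Fc receptor subunits were positively correlated (median Pearson r of log2 TPM 0.74), as were all 10 pairs of lectin receptors (median 0.69), and all 25 pairs of an Fc receptor subunit with a lectin receptor were negatively correlated (median -0.61). Littermates share a litter and all genes share a library, so these are a description. Over the 6 litter means, Fcgr4 and Clec4d had the strongest relation, with r = -0.94 (exact permutation p = 0.00139, adjusted p = 0.0625 over 45 pairs) and Spearman rho = -1 (exact permutation p = 0.00278, adjusted p = 0.125), and r was -0.997 without litters 3 and 5, the 2 farthest from the median. Clec5a and Clec7a had r = 0.90 (exact permutation p = 0.00833, adjusted p = 0.156) and rho = 0.94 (exact permutation p = 0.0167), and r was 0.865 without litters 3 and 5. For Clec4e and Clec4n, r was 0.91 (exact permutation p = 0.112) and rho 0.43 (exact permutation p = 0.419), and r turned to -0.465 without litters 1 and 3, so that relation rests on those litters. None of the 45 pairs passed adjustment, and without the 2 farthest litters the sign held in 7 of 10 Fc receptor pairs, 5 of 10 lectin pairs and 14 of 25 mixed pairs, so much of the pattern rests on the litters left out.

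**Figure D4:**
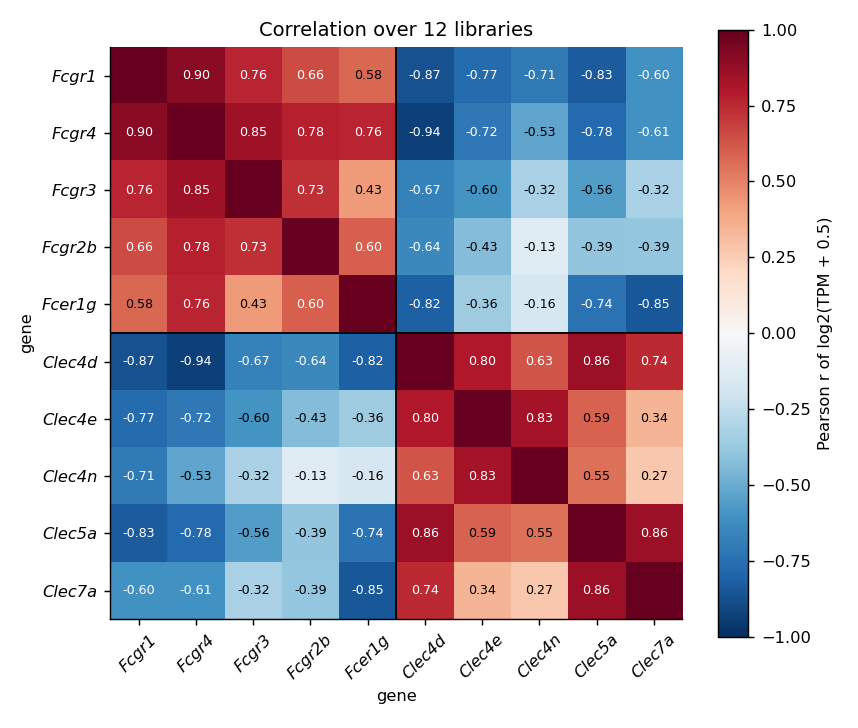
Pearson r of log2(TPM + 0.5) over the 12 libraries for each pair of the 10 genes, red for positive and blue for negative values, with Fc receptor subunits before and C-type lectin receptors after the black lines. Both blocks on the diagonal are positive throughout and the block between these members is negative throughout, down to -0.94 for Fcgr4 and Clec4d.

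The members differed in how far litters stood apart. Clec5a varied 11-fold from lowest to highest library, Clec7a 10.4-fold, Fcgr1 10.1-fold and Clec4n 9.57-fold, whereas Fcer1g varied 2.09-fold. The SD of litter means was 3.75 times the SD of the log2 ratios for Clec5a and 3.20 times for Fcer1g, but 0.743 times for Fcgr2b and 0.788 times for Clec4e. Of all other genes tested, the one whose log2 TPM followed Fcgr1 most closely over the 12 libraries was Cp, which encodes the ferroxidase ceruloplasmin (r = 0.98), and Clec4d was followed most closely by Txnrd1, which encodes a thioredoxin reductase (r = 0.98). The closest genes to Fcgr4, Fcgr3, Fcgr2b and Fcer1g were Armcx6 (0.98), Oaz2 (0.97), Gyg (0.90) and Psat1 (0.97). Those closest to Clec4e, Clec4n, Clec5a and Clec7a were Fam210a (0.93), Insig1 (0.92), Slc23a2 (0.97) and Atp6v1a (0.97). Each is the highest of the correlations with all tested genes and is a description only.

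No gene of the signaling lists passed adjustment. Of 28 ITAM adaptors and kinases, 9 had a mean ratio above 0 and 19 below, with a median of -0.13, and 3 had an unadjusted p under 0.05, all lower (4.38% of all genes were), among them Grb2 and Fyn. None of the 28 had one after rescaling to an equal total over the transcripts in the table, without the trend, or without litter 2 or litter 4. Grb2, an adaptor of the Ras pathway, had 112 ± 28.0 TPM in ErbB4myeKO and 127 ± 29.5 TPM in ErbB4FF BM-Mɸs and was lower in 6 of 6 litters (log2 ratio -0.19; exact permutation p = 0.0312; limma p = 0.0365, adjusted p = 0.603). Syk itself had 320 ± 73.7 and 311 ± 75.2 TPM (log2 ratio 0.05; exact permutation p = 0.5; limma p = 0.537), and Pik3ap1, an adaptor for phosphoinositide 3-kinase, had a ratio of -0.16 (limma p = 0.148). On the inhibitory side, 5 of 16 genes lay above 0 and 11 below (median -0.15). 1 of them, Inpp5d, was higher with an unadjusted p under 0.05, beside 3.83% of all genes. This count was 0 without the litter block and at the 5 TPM filter, and 2 without litter 1, 3 or 5 and with the Y-linked covariate. Inpp5d encodes the phosphatase SHIP-1 that FcγRIIB recruits, and had 3.59 TPM in ErbB4myeKO and 1.93 TPM in ErbB4FF BM-Mɸs on average, with 3.41e-07 TPM in its lowest library (log2 ratio 1.10; higher in 5 of 6 litters; exact permutation p = 0.0625; limma p = 0.0109, adjusted p = 0.603). Inpp5d and Fyn, with Rac2 and Clec10a below and the single markers above, were named after their values were seen. The phosphatase gene Ptpn6 (-0.17) and Sirpa (-0.04), the inhibitory receptor for CD47, were the most abundant of that list.

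Of 13 effectors of Fc receptor phagocytosis, 3 lay above 0 and 10 below (median -0.06), with an unadjusted p under 0.05 for 2, Elmo1 and Rac2, both lower (4.38% of all genes were). This count was 0 after the same rescaling, without the trend and without litter 2. Elmo1, which helps activate Rac during engulfment, was lower in 6 of 6 litters (log2 ratio -0.29; exact permutation p = 0.0312; limma p = 0.0474, adjusted p = 0.603). The actin-nucleating subunit Arpc2 (-0.06) and the NADPH oxidase chain Cybb (0.11) were the most abundant and did not reach that p. Outside the members, 4 Fc receptor genes were tested, all 4 below 0 (median -0.25) and none with an unadjusted p under 0.05, among them Fcrls (-0.40) and the cytosolic antibody receptor Trim21 (-0.14). The number with such a p was 1 without litter 3 and 1 without the filter, where lower genes were tested too. Of 13 other C-type lectins tested, 9 lay below 0 and 4 above (median -0.23), including Clec12a (-0.11) and Cd69 (-0.23), and 1, Clec10a, had an unadjusted p under 0.05 (lower, near the detection limit, with at most 7.06 TPM; 4.38% of all genes were lower). This count was 0 without litter 4, 5 or 6, with the Y-linked covariate, at a pseudocount of 0.1 and at the 5 TPM filter, and 4 without litter 3.

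Of the 12 LPS response genes, 11 lay above 0 and 1 below (median 0.56), with 3 at an unadjusted p under 0.05, all higher (3.83% of all genes were). That count was 1 without litter 2, 4 or 6 and with the Y-linked covariate. It was 5 after the rescaling, without litter 5 and in litters 1 to 4 only. Cxcl1, a neutrophil chemoattractant, was higher in ErbB4myeKO in 6 of 6 litters (log2 ratio 1.14 ± 1.17, SD; exact permutation p = 0.0312; limma p = 0.0204, adjusted p = 0.603), and so was Il12b, a subunit of IL-12 and IL-23 (1.19 ± 1.39, SD; exact permutation p = 0.0312; limma p = 0.0349, adjusted p = 0.603). Il1b (0.25) and Ccl3 (0.48), the most abundant, did not reach that p. Of the 12 IFN-γ response genes, 4 lay above 0 and 8 below (median -0.05). The chemokine gene Cxcl10 was lower in 6 of 6 litters (-0.18 ± 0.12, SD; exact permutation p = 0.0312; limma p = 0.0214, adjusted p = 0.603), whereas Cxcl9 (0.21) and the GTPase gene Gbp2 (-0.04) had p above 0.05. The count of 1 IFN-γ gene with an unadjusted p under 0.05, lower as in 4.38% of all genes, was 0 without litter 4, the block or the trend and in litters 1 to 4 only. It was 2 without litter 1 or 5. Adjusted p was above 0.05 for every gene of these lists.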

How the data were processed

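RNA of 12 BM-Mɸ cultures, 1 per mouse, was sequenced by the authors as single-end reads of 75 bp. Per the submitters' processing notes the tools were CASAVA, kallisto and sleuth with mm10, with versions and the transcript release not given in the sources used here. The deposited table gives TPM (kallisto's share of transcripts, scaled by length) for the APPRIS principal transcripts in each library. It also gives the authors' p, q and log2 ratio columns, which were not used, and a mean over libraries that was deposited as the natural log of normalized estimated counts and served only to show how many reads stood behind a transcript. TPM keeps no depth, so no interval for single libraries was formed.

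After 405 repeated lines were dropped, TPM was summed per gene and 35 symbols were mended from the reference gene names. The 8780 genes whose mean reached 1 TPM were tested on log2(TPM + 0.5) in R 4.3.3 by limma 3.58.1, using lmFit and then eBayes with its trend option. Litter entered as a block, since the study adjusts for litter, with Benjamini-Hochberg adjustment over all of these genes. Fold changes on this scale understate low genes. Littermates share a litter by their labels, and their deviations from the group means correlated at 0.273 to 0.774. For single members the mean ratio over litters was compared with all 64 swaps of genotype within litters (two-sided exact permutation test). On simulated data with 200 of 8780 genes changed, the fit recovered 65% of genes changed by 1 and 81% of those changed by 2 on the log2 scale, with 10 false of 156 calls. Receptor ratios are given with no p, although a test had been planned. Shared 31-base words came from GENCODE M21 transcripts, and promoters from RefSeq (GRCm38.p6), where 9 of 10 members matched and Clec4n has no entry in the table used. Named genes were all members, the genes of each pathway list with unadjusted p under 0.05 and 1 sign in all 6 litters plus the 2 most abundant of each list, and for each member the gene with the highest correlation. The members, gene lists and motifs were chosen with earlier results of these data known. Alternatives were other pseudocounts (0.1 and 1), filters (none, and 5 TPM), 2 rescalings, no trend, the top transcript alone, no litter block, a Y-linked covariate, each litter left out, and, chosen after seeing the data, litters 1 to 4 only. The labels do not give sex. Y-linked scores differed between littermates by only 0.0064 to 0.092, so the block already held them and the covariate could not adjust for sex. Both libraries scored from 0.80 to 1.40 in litters 1 to 4 and from -2.14 to -2.05 in litters 5 and 6.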

Additional observations from a re-analysis of the deposited data

Results flagged for a closer look

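In both genotypes 1 litter stood apart from the other 5 for the same gene. Fcer1g measured 5488 TPM in the ErbB4myeKO library of litter 5, where the other 5 ErbB4myeKO libraries lay between 2890 and 3649 TPM, and 6049 TPM in its ErbB4FF littermate, where the others lay between 3216 and 3829 TPM. Litter 5 also had the 2 highest shares of TPM in the table. Clec4n measured 84.6 TPM in the ErbB4myeKO library of litter 3, against 19.8 to 34.4 TPM in the others, and 76.4 TPM in its ErbB4FF littermate, against 8.84 to 27.5 TPM.

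The log2 ratio of Clec5a in litter 2 was 0.93, with 0.01 to 0.34 in the other litters. The ErbB4myeKO library of litter 2 had a ratio of activating to inhibitory Fcγ receptors of 281, against 77.5 to 149 in the others, and likewise a ratio of Fcgr3 to Fcgr2b of 82.2 (others 20.1 to 36.8) and of Fcgr4 to Fcgr2b of 177 (others 52.9 to 97.6). These 3 ratios share their denominator, the 3.30 TPM of Fcgr2b in that library. Each value was picked out by Dixon's gap test at the 95% level, in 8 of 40 groups of values tested, where chance gives about 1 in 20.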

How the results depend on the processing

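All 170 member values under 17 alternatives kept their direction, and no member had an adjusted p under 0.05 in any. Part of that agreement was fixed in advance. Dropping the block, the trend or the filter, or filtering at 5 TPM, changes the p-values but cannot change a member's mean ratio. The top transcript alone could change only Fcgr2b, which had 2 transcripts in the table. Without the replicate block (litter), 0 of the 3 members kept an unadjusted p under 0.05 (Fcgr1 0.138, Fcgr4 0.268, Clec5a 0.564), with 75 in place of 721 genes overall and 1 in place of 11 pathway list genes. The latter were 7 with the Y-linked covariate and 5 without the trend. Without the block, no ITAM, phagocytosis, LPS or IFN-γ list gene had an unadjusted p under 0.05. The median over the 10 members, near 0 at -0.01, turned to 0.0099 with the Y-linked covariate, 0.0094 after rescaling over the principal transcripts and 0.038 in litters 1 to 4 only, where the ratio of Fcgr3 was -0.57 (unadjusted p 0.0151, against -0.24 in all litters) and those of Fcgr4 (-0.50, p 0.0608) and Clec5a (0.37, p 0.0709) were no smaller but, with 4 litters, not under 0.05. In those litters the log2 difference of the activating to inhibitory ratio was 0.10 and that of Fcgr4 to Fcgr2b 0.17. Litters 5 and 6, left out there, had Y-linked scores from -2.14 to -2.05 in their libraries and were the litters with Fcgr3 higher in ErbB4myeKO. The part of sex in this was not tested.

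With each litter left out in turn, 2 to 4 members and 413 (without litter 2) to 864 genes had an unadjusted p under 0.05, with 458 without litter 4, and 4 to 15 pathway list genes did. Genes with an adjusted p under 0.05 numbered 0 to 1, the 1 being Igkv1-88 without litter 3 (log2 ratio -3.27, adjusted p = 0.0490). The Fc receptor median ran from -0.48 to -0.13. The members' median ran from -0.038 to 0.0028, the activating to inhibitory difference from -0.18 to 0.086, that of Fcgr4 to Fcgr2b from -0.20 to 0.14 and that of Fcer1g to its partner chains from -0.014 to 0.11. The cause of these changes was not tested. With 6 litters the exact test cannot give a p below 0.0312, and the few estimated counts of Clec5a and Clec7a limit their precision.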
